A study of Homo sapiens with 6 samples.

Results

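Ribosome footprints of 10 genes of TGF-beta signalling were followed in cells with and without knockdown of TRMT61A. The genes were the ligands TGFB1, TGFB2 and TGFB3, the activin subunit INHBA, and the LTBP family members LTBP1 and LTBP2. The receptors TGFBR1, TGFBR2, TGFBR3 and ENG completed the 10. They were picked by Ensembl ID, and all 10 were found among the 62492 features of the deposited count table. Their symbols come from that selection rule, because neither the table nor the reference tables pair Ensembl IDs with symbols. All libraries were made from WPMY-1, a line of myofibroblast-like stromal cells from human prostate that was immortalised with the SV40 large T antigen. A group of 3 libraries, labelled sh61A with the genotype TRMT61A knockdown, was set against 3 libraries labelled shcontrol with the genotype TRMT61A wildtype. TRMT61A is the catalytic subunit of the enzyme that writes 1-methyladenosine into tRNA. The study asked how this modification bears on the translation of TGF-beta pathway genes. The labels do not say how many hairpins or clones stand behind each group, nor whether its libraries stem from separate cultures. The p-values rest on the spread among the 6 libraries, and that spread may be technical.

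TGF-beta is made as a precursor whose propeptide stays wrapped around the mature dimer and keeps it inactive. LTBP1 binds this latent complex covalently and anchors it in the matrix, whereas LTBP2 is a matrix protein of the same family that does not bind latent TGF-beta. Active ligand binds the type II receptor TGFBR2, which recruits and phosphorylates the type I receptor TGFBR1, the kinase that phosphorylates SMAD2 and SMAD3. The coreceptors TGFBR3 (betaglycan) and ENG (endoglin) present ligand to the signalling pair. INHBA encodes the subunit of activin A, which uses its own receptors and the same SMADs. In stroma, the pathway is known for turning fibroblasts into contractile, matrix-producing myofibroblasts.

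A footprint is a short stretch of mRNA shielded by a ribosome from nuclease, and the number of footprints on a gene depends on both its mRNA level and its translation. These counts alone cannot divide the 2. Total counts ran from 12704354 to 17752247 in sh61A libraries and from 6771455 to 8008896 in shcontrol libraries, so the shallowest library was a control. Levels are given in CPM, counts brought to a common library total, after scaling of the libraries by TMM, which assumes that most features do not change. The 50 most abundant features held 69.9% to 73.2% of the counts in sh61A libraries and 71.0%, 62.7% and 61.8% in shcontrol libraries 1 to 3. TMM factors ran from 0.858 to 0.974 in sh61A libraries and were 0.923, 1.21 and 1.21 in shcontrol libraries 1 to 3. By both values, shcontrol library 1 lay within the range of the sh61A libraries. After this scaling 1 count was worth 0.0657 to 0.0847 CPM in sh61A libraries and 0.113 to 0.136 CPM in shcontrol libraries. Gene lengths were not used, so levels of different genes are not compared. The level of TRMT61A itself, cell type markers and the other genes of the pathway were not analysed here, since their IDs are not paired with symbols.

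The upstream sequence of the 2 genes that passed the test described below, and of TGFB1 as the founding ligand, is shown to set the genes in the genome. RefSeq (GRCh38.p14) lists a start-site window for each of the 10 genes. The 250 bases before the first start site listed are printed 5′ to 3′ on the strand of the gene. Capitals mark matches, on either strand, to the GC box GGGCGG, the CCAAT box CCAAT, the cyclic AMP response element TGACGTCA, the AP-1 site TGANTCA and the SMAD box CAGAC.
TGFBR1, chr9:99104863-99105112, plus strand: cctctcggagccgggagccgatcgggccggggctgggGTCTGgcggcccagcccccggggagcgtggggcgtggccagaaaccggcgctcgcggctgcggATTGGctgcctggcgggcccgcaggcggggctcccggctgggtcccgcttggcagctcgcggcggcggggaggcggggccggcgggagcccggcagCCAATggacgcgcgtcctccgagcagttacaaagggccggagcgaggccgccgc
LTBP1, chr2:32946703-32946952, plus strand: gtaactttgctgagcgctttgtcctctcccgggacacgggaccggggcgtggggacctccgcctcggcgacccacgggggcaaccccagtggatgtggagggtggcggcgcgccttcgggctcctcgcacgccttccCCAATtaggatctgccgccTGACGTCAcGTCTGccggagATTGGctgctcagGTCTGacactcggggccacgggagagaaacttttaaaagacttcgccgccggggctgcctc
TGFB1, chr19:41353923-41354172, minus strand: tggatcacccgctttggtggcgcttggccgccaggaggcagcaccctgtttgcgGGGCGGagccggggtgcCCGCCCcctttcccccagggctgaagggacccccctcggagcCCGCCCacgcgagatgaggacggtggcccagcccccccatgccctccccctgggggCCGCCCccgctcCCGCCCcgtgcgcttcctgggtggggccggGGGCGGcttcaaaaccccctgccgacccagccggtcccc
The TGFBR1 window held 2 CCAAT boxes and 1 SMAD box. The LTBP1 window held 2 CCAAT boxes, 2 SMAD boxes and 1 cyclic AMP response element, which starts 94 bases before the start site. The TGFB1 window held 6 GC boxes and none of the other 4 letter strings. Among 35116 such windows of all genes, 42.6% held a GC box, 32% a CCAAT box, 38% a SMAD box, 6.57% an AP-1 site and 1.65% a cyclic AMP response element. TGFBR1 has 8 listed start sites and LTBP1 has 3, and the other windows of these genes differ in their matches. A match is a string of letters and was not tested as a bound site. Footprint counts do not show which start site was used.

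Knockdown libraries had fewer footprints on TGFBR1 and more on LTBP1, and these were the 2 of the 9 tested members that passed the test. TGFBR1 was 3.57-fold lower and LTBP1 2.67-fold higher in sh61A libraries. TGFB1 and TGFBR2 were 1.87-fold and 1.86-fold higher by the fitted values, LTBP2 1.61-fold lower, and none of these 3 passed. TGFB2, INHBA, TGFBR3 and ENG overlapped between the groups, and TGFB3 was removed by the filter on low counts. The test was edgeR's quasi-likelihood F-test over all features kept by its filter on low counts, with Benjamini-Hochberg adjustment over all of them and a threshold of 0.05. Of the 11653 features tested, 3.12% passed, 1.48% higher and 1.64% lower in sh61A libraries. The median log2 fold change was 0.41 over the 9 tested members and -0.0047 over all tested features, and 6 of the 9 members lay above 0 against 49.7% of all features. In these bulk libraries, a change of the level per cell cannot be told apart from a change in the make-up of the culture.

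**Figure D1:**
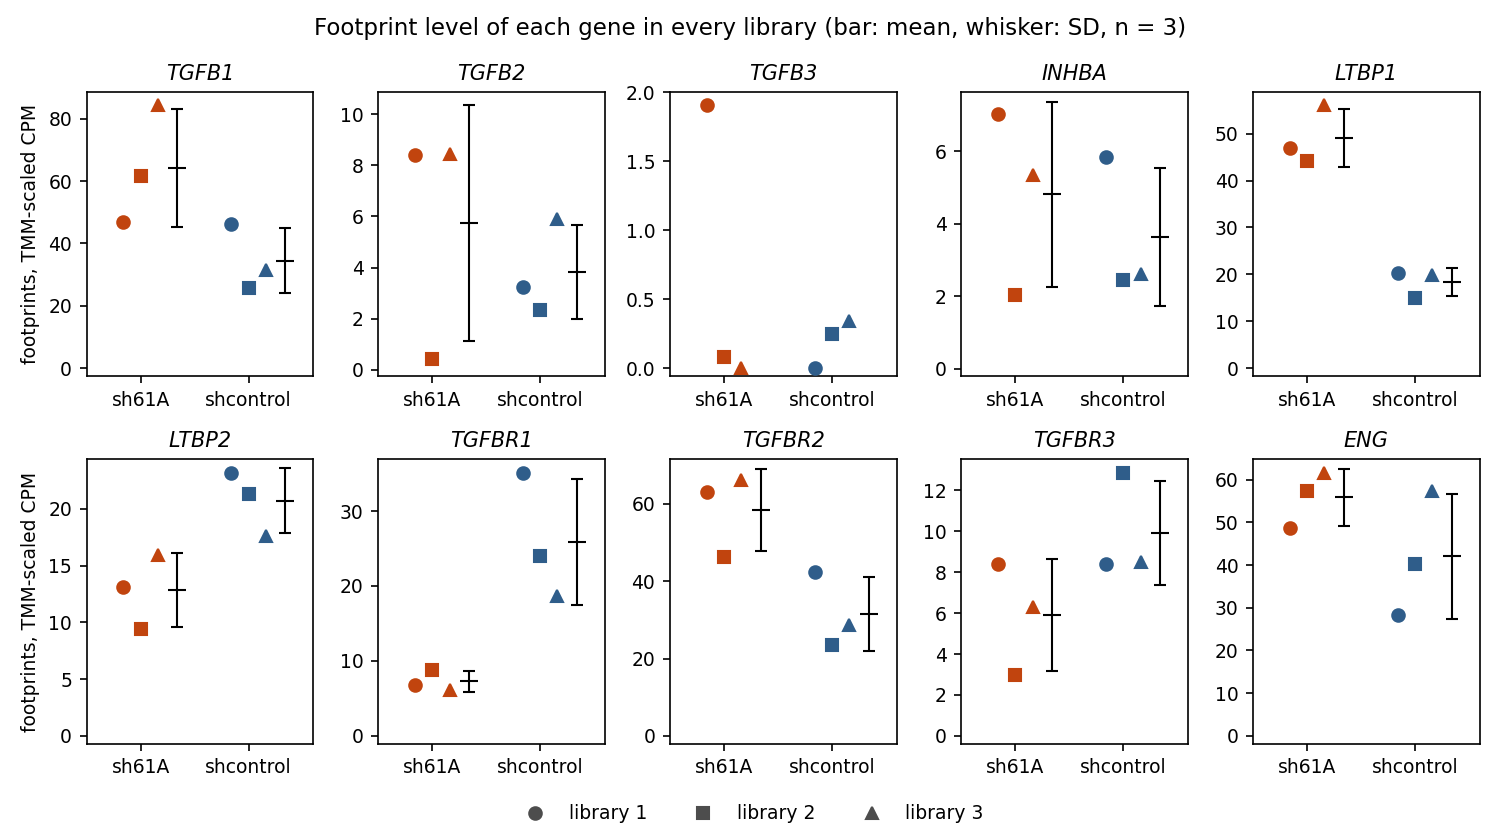
Footprint level of each of the 10 genes in TMM-scaled CPM (vertical axes, each gene on its own scale from 0), with the 3 sh61A libraries left and the 3 shcontrol libraries right, and mean and SD beside them except for TGFB3, where 2 libraries were at 0. The sh61A libraries of LTBP1 sit between 44.2 and 56.1 CPM, above all shcontrol libraries, and those of TGFBR1 sit between 6.16 and 8.81 CPM, below all of them.

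The 3 TGF-beta ligands differed in how evenly the libraries counted them. TGFB1, the isoform best known for matrix production in stroma (ENSG00000105329.10_7), had 711, 729 and 1041 counts in sh61A libraries 1 to 3 and 340, 211 and 277 in shcontrol libraries 1 to 3. Scaled, these were 46.7, 61.8 and 84.3 CPM in sh61A libraries and 46.1, 25.9 and 31.4 CPM in shcontrol libraries. The lowest knockdown library thus lay only just above the highest control library. The mean was 64.3 ± 18.9 CPM in sh61A libraries and 34.5 ± 10.5 CPM in shcontrol libraries (SD, n = 3 each). Its fitted log2 fold change was 0.90 ± 0.30 (SE; 95% interval 0.25 to 1.55), with an adjusted p of 0.139 in edgeR. TGFB1 passed in 1 of 14 alternatives, edgeR without the filter on low counts, at an adjusted p of 0.0464 in a fit that called 3.58% of its features. The separation of the groups also rested on the scaling. By library size alone, TGFB1 had 40.1, 54.9 and 81.9 CPM in sh61A libraries and 42.5, 31.2 and 37.8 CPM in shcontrol libraries, which overlap.

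TGFB2, an isoform with a role in development and in the eye (ENSG00000092969.12_6), was uneven within the knockdown. It had 128, 5 and 104 counts in sh61A libraries 1 to 3 and 24, 19 and 52 in shcontrol libraries 1 to 3. The 5 counts of sh61A library 2 equal 0.424 CPM (exact Poisson 95% interval 0.138 to 0.989), against 8.42 CPM in library 1 (7.02 to 10.01) and 8.43 CPM in library 3 (6.88 to 10.2). These intervals cover counting error only, and the gap between library 2 and the other knockdown libraries exceeds it. The shcontrol libraries had 3.25, 2.33 and 5.90 CPM, inside the range of the knockdown libraries. Its log2 fold change was 0.59 ± 0.91 (SE; 95% interval -1.39 to 2.56) with an adjusted p of 0.846 in edgeR, so neither a rise nor a fall of this gene was detectable. With 1 library left out, it ran from 0.21 without sh61A library 1 to 1.13 without sh61A library 2, where the adjusted p was 0.472 in edgeR. By library size alone it was 0.29. With limma voom it was -0.031, at an adjusted p of 0.991.

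TGFB3, the third isoform (ENSG00000119699.7_4), was almost uncounted and has no value in the edgeR test, whose filter removed it. It had 29, 1 and 0 counts in sh61A libraries 1 to 3 and 0, 2 and 3 in shcontrol libraries 1 to 3. Most of its counts came from sh61A library 1, at 1.91 CPM (exact Poisson 95% interval 1.28 to 2.74). The 2 libraries at 0 have upper ends of the same interval at 0.299 CPM in sh61A library 3 and 0.500 CPM in shcontrol library 1, and the simpler one-sided limit of 3 counts comes to 0.243 CPM and 0.407 CPM in these libraries. Both alternatives that kept the gene left its direction unresolved. The log2 fold change was 1.72 ± 2.68 (SE) when edgeR ran with no such filter, at an adjusted p of 0.805, and 1.78 ± 2.53 in DESeq2, which left the adjusted p undefined.

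TGFB1 carried most footprints of the 3 isoforms in every library. Its share was 81.9%, 99.2% and 90.9% in sh61A libraries and 93.4%, 90.9% and 83.4% in shcontrol libraries. The mean was 90.7% ± 8.6 in sh61A libraries and 89.3% ± 5.2 in shcontrol libraries (SD, n = 3 each), and the ranges overlap. The difference was 1.41 percentage points (exact permutation test over libraries, two-sided, p = 1.0). A share within a library does not depend on scaling between libraries, but it does depend on gene length, so it is no measure of relative protein output. This sample size allows no p under 0.1 in such a test.

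INHBA, the activin subunit (ENSG00000122641.11_6), had 107, 24 and 66 counts in sh61A libraries and 43, 20 and 23 in shcontrol libraries. These were 7.04, 2.03 and 5.35 CPM in sh61A libraries and 5.83, 2.45 and 2.61 CPM in shcontrol libraries. The lowest value of all 6 was a knockdown library, as for TGFB2, and the highest was one too. The log2 fold change of 0.41 ± 0.76 (SE; 95% interval -1.25 to 2.07; adjusted p = 0.875 in edgeR) spans both directions. Its size rested on single libraries, from 0.027 without sh61A library 1 to 0.92 without shcontrol library 1, and it was 0.18 by library size alone. No alternative called it.

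Of the 2 LTBP family members, LTBP1 was higher in sh61A libraries and passed, while LTBP2 lay lower in them without passing. LTBP1, the carrier of latent TGF-beta (ENSG00000049323.16_6), had 715, 521 and 692 counts in sh61A libraries 1 to 3 and 149, 122 and 176 in shcontrol libraries 1 to 3. Scaled, it had 47.0, 44.2 and 56.1 CPM in sh61A libraries and 20.2, 14.96 and 19.96 CPM in shcontrol libraries. The lowest knockdown library was 23.9 CPM above the highest control library, and the spread within either group was small, at a coefficient of variation of 12.7% in sh61A and 16.1% in shcontrol libraries. The log2 fold change was 1.42 ± 0.26 (SE; 95% interval 0.85 to 1.99), at an adjusted p of 0.0154 by edgeR. That change was above that of 94.7% of the tested features. The call held in 9 of 14 alternatives. It was lost with library size alone (1.14, adjusted p = 0.0593 in edgeR). Among edgeR fits with 1 library left out it was lost without sh61A library 2 (adjusted p = 0.0602), sh61A library 3 (0.0583), shcontrol library 2 (0.0936) or shcontrol library 3 (0.0672), at log2 fold changes between 1.28 and 1.49.

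LTBP2, the family member that does not bind latent TGF-beta (ENSG00000119681.12_8), lay lower in sh61A libraries without passing. It had 200, 111 and 197 counts in sh61A libraries and 171, 174 and 155 in shcontrol libraries, counts of like size from knockdown libraries that were deeper. Scaled, it had 13.1, 9.41 and 15.96 CPM in sh61A libraries and 23.2, 21.3 and 17.6 CPM in shcontrol libraries. The groups did not overlap, and the gap between them was 1.62 CPM. Fitted, the log2 fold change was -0.69 ± 0.33 (SE; 95% interval -1.42 to 0.040), with an adjusted p of 0.341 in edgeR, and no alternative called it.

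Within a library, the balance between LTBP1 and LTBP2 footprints differed between the groups. LTBP2 made up 21.9%, 17.6% and 22.2% of their joint footprints in sh61A libraries and 53.4%, 58.8% and 46.8% in shcontrol libraries. The mean share was 20.5% ± 2.6 in sh61A libraries and 53.0% ± 6.0 in shcontrol libraries (SD, n = 3 each), a difference of -32.5 percentage points. The groups were fully separated, which gives an exact permutation p of 0.1, the smallest that 3 against 3 libraries allow. More LTBP1 footprints by themselves lower the LTBP2 share, so the share is not a result separate from the LTBP1 call. Put as a ratio, LTBP1 had 3.58, 4.69 and 3.51 footprints for each LTBP2 footprint in sh61A libraries and 0.871, 0.701 and 1.14 in shcontrol libraries. The ratio was chosen after its values were seen and has no test.

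The 2 signalling receptors also lay on opposite sides, TGFBR1 lower and TGFBR2 higher in sh61A libraries, and only TGFBR1 passed. TGFBR1, the type I receptor kinase (ENSG00000106799.13_5), had 103, 104 and 76 counts in sh61A libraries 1 to 3 and 259, 196 and 164 in shcontrol libraries 1 to 3. The knockdown libraries thus held fewer raw counts in spite of their greater depth. Scaled, it had 6.77, 8.81 and 6.16 CPM in sh61A libraries and 35.1, 24.0 and 18.6 CPM in shcontrol libraries. The lowest control library was 9.79 CPM above the highest knockdown library. The mean was 7.25 ± 1.39 CPM in sh61A libraries and 25.9 ± 8.4 CPM in shcontrol libraries (SD, n = 3 each). The log2 fold change was -1.84 ± 0.36 (SE; 95% interval -2.63 to -1.05), with an adjusted p of 0.0194 in edgeR. Only 2.94% of the tested features had a lower one. It passed in all 8 alternatives that kept all 6 libraries, between -2.09 and -1.79 on the log2 scale.

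Each of the 6 fits with 1 library left out lost the TGFBR1 call. The adjusted p in edgeR was 0.0632, 0.0674 and 0.0724 without sh61A libraries 1, 2 and 3, and 0.0993, 0.0934 and 0.0544 without shcontrol libraries 1, 2 and 3. The log2 fold change stayed between -2.03 and -1.56. These fits call fewer features altogether, from 47 to 171 against 364 with all libraries.

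TGFBR2, the type II receptor that binds ligand first (ENSG00000163513.19_6), had 959, 547 and 816 counts in sh61A libraries and 312, 193 and 252 in shcontrol libraries. These were 63.1, 46.4 and 66.1 CPM in sh61A libraries and 42.3, 23.7 and 28.6 CPM in shcontrol libraries, with no overlap. This is a log2 fold change of 0.89 ± 0.28 (SE; 95% interval 0.28 to 1.51), with an adjusted p of 0.119 in edgeR. TGFBR2 passed in 1 of 14 alternatives, DESeq2, at an adjusted p of 0.0454. That fit called 10.2% of the 8178 features to which it gave an adjusted p.

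The footprint balance between the 2 signalling receptors restates their opposite directions. With TGFBR1 lower and TGFBR2 higher, the ratio by construction differs more than either gene alone. For each TGFBR1 footprint there were 9.31, 5.26 and 10.7 TGFBR2 footprints in sh61A libraries and 1.20, 0.985 and 1.54 in shcontrol libraries. The geometric mean was 8.07 in sh61A libraries and 1.22 in shcontrol libraries, a 6.61-fold difference that does not depend on scaling. This ratio was chosen after its values were seen and has no test. The ratio of TGFB1 to TGFBR2, in contrast, overlapped between the groups. TGFB1 had 0.741, 1.33 and 1.28 footprints per TGFBR2 footprint in sh61A libraries and 1.09, 1.09 and 1.10 in shcontrol libraries. This ratio, too, was chosen after its values were seen.

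**Figure D2:**
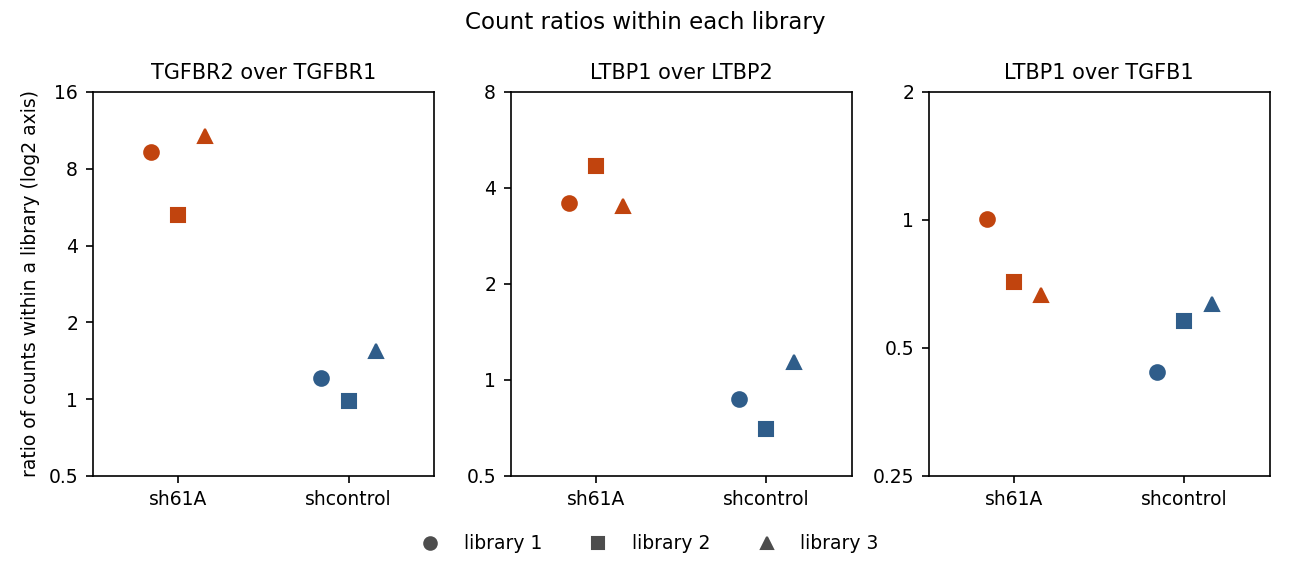
Ratio of raw counts of 2 genes within each library (vertical axes, log2 scale), with the 3 sh61A libraries left and the 3 shcontrol libraries right in each panel. TGFBR2 over TGFBR1 lies between 5.26 and 10.7 in sh61A libraries and between 0.985 and 1.54 in shcontrol libraries, whereas LTBP1 over TGFB1 lies between 0.665 and 1.01 in sh61A libraries and between 0.438 and 0.635 in shcontrol libraries. All ratios shown were chosen after their values were seen and have no test.

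The 2 coreceptors gave no call. TGFBR3, betaglycan (ENSG00000069702.11_7), had 128, 35 and 78 counts in sh61A libraries and 62, 105 and 75 in shcontrol libraries, or 8.42, 2.97 and 6.32 CPM in sh61A libraries and 8.41, 12.9 and 8.51 CPM in shcontrol libraries. The groups touched, since sh61A library 1 and shcontrol library 1 were nearly equal. Its log2 fold change was -0.75 ± 0.52 (SE; 95% interval -1.88 to 0.39), with an adjusted p of 0.558 in edgeR. With 1 library left out, the TGFBR3 value ran from -1.09 without sh61A library 1 to -0.43 without sh61A library 2, and no alternative called it. ENG, endoglin (ENSG00000106991.13_3), had 739, 677 and 761 counts in sh61A libraries and 209, 329 and 506 in shcontrol libraries. Its 48.6, 57.4 and 61.7 CPM in sh61A libraries overlapped the 28.3, 40.3 and 57.4 CPM of the shcontrol libraries, where shcontrol library 3 had about the level of sh61A library 2. The log2 fold change of 0.41 ± 0.28 (SE; 95% interval -0.21 to 1.02) did not pass (adjusted p = 0.551 in edgeR). For ENG it was 0.19 without shcontrol library 1, 0.70 without shcontrol library 3 and 0.085 by library size alone, and no alternative called this gene.

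Among the footprints of the 4 receptors, the share of TGFBR2 was 49.7%, 40.1% and 47.1% in sh61A libraries and 37.1%, 23.5% and 25.3% in shcontrol libraries. The means were 45.7% ± 5.0 in sh61A libraries and 28.6% ± 7.4 in shcontrol libraries (SD, n = 3 each). The difference of 17.1 percentage points came with complete separation of the groups and an exact permutation p of 0.1, the smallest possible here. The 4 shares have a common total, so fewer TGFBR1 footprints by themselves raise the share of TGFBR2. TGFBR2 itself did not pass the edgeR test, and its share is no separate support for a rise. The share of TGFBR1 was 5.34%, 7.63% and 4.39% in sh61A libraries and 30.8%, 23.8% and 16.4% in shcontrol libraries. ENG held 44.0% ± 5.7 of the receptor footprints in sh61A libraries and 38.5% ± 13.0 in shcontrol libraries, and TGFBR3 held 4.57% ± 2.03 in sh61A libraries and 9.21% ± 3.07 in shcontrol libraries (SD, n = 3 each).

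**Figure D3:**
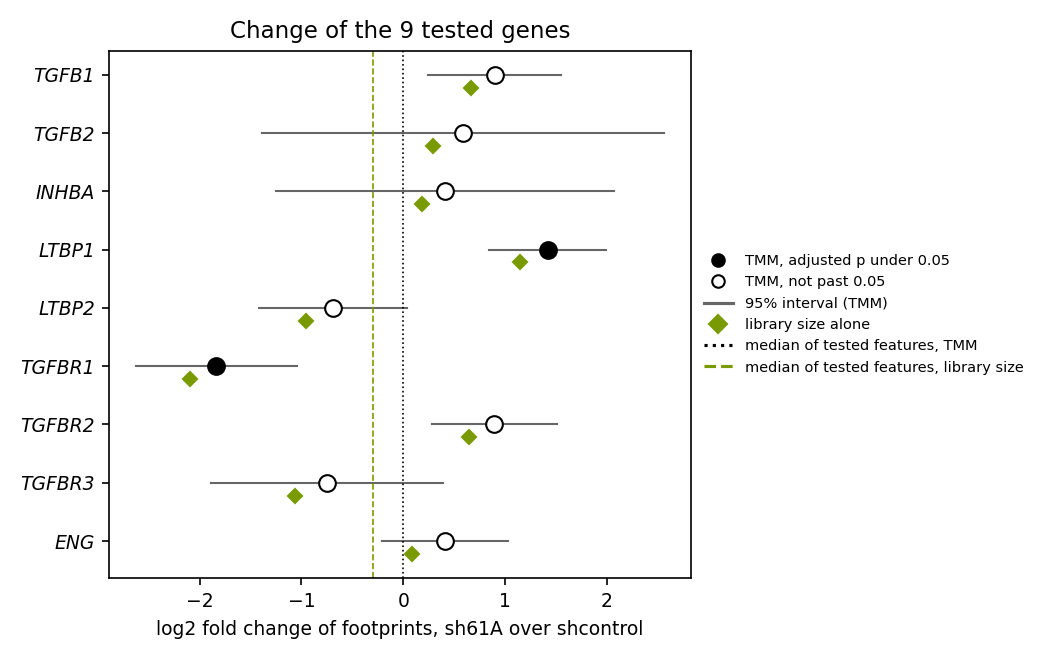
Log2 fold change of footprints, sh61A over shcontrol (horizontal axis), for the 9 tested genes, with circles for TMM scaling (filled where the adjusted p was under 0.05), grey lines for 95% intervals and diamonds for scaling by library size alone. Vertical lines mark the median of all tested features, -0.0047 with TMM (dotted) and -0.30 with library size (dashed), and each gene keeps its side of 0 under both.

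Across the 10 genes, the TMM-scaled groups did not overlap for 5. These were TGFB1, TGFBR2 and LTBP1, higher in sh61A libraries, and TGFBR1 and LTBP2, lower in them. Among all tested features 24.8% did not overlap, 12.2% higher and 12.7% lower in sh61A libraries. By library size alone, the median over all features was -0.30. TGFBR2 and LTBP1 were then higher without overlap (6.09% of all tested features), and TGFBR1, LTBP2 and TGFBR3 lower (19.1%). The signs of the 9 log2 fold changes were the same under both scalings.

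The 10 genes together held 251, 233 and 310 CPM in sh61A libraries and 213, 168 and 191 CPM in shcontrol libraries. As a plain share of all counts they made up 0.0215%, 0.0207% and 0.0302% in sh61A libraries and 0.0196%, 0.0202% and 0.0230% in shcontrol libraries, which overlap. TGFB1, TGFBR2, ENG and LTBP1 had most of these counts, so the sums mainly reflect those 4 genes. Within the knockdown, sh61A library 2 was the lowest of the 3 libraries for 6 of the 10 genes (TGFB2, TGFBR2, TGFBR3, LTBP1, LTBP2 and INHBA), and over all tested features it was the lowest for 29.4%. Among the controls, shcontrol library 2 was the lowest for 5 of the 10 genes (TGFB1, TGFB2, TGFBR2, LTBP1 and INHBA), against 32.3% of all tested features. The part of these libraries in the results was not tested beyond leaving each of them out.

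**Figure D4:**
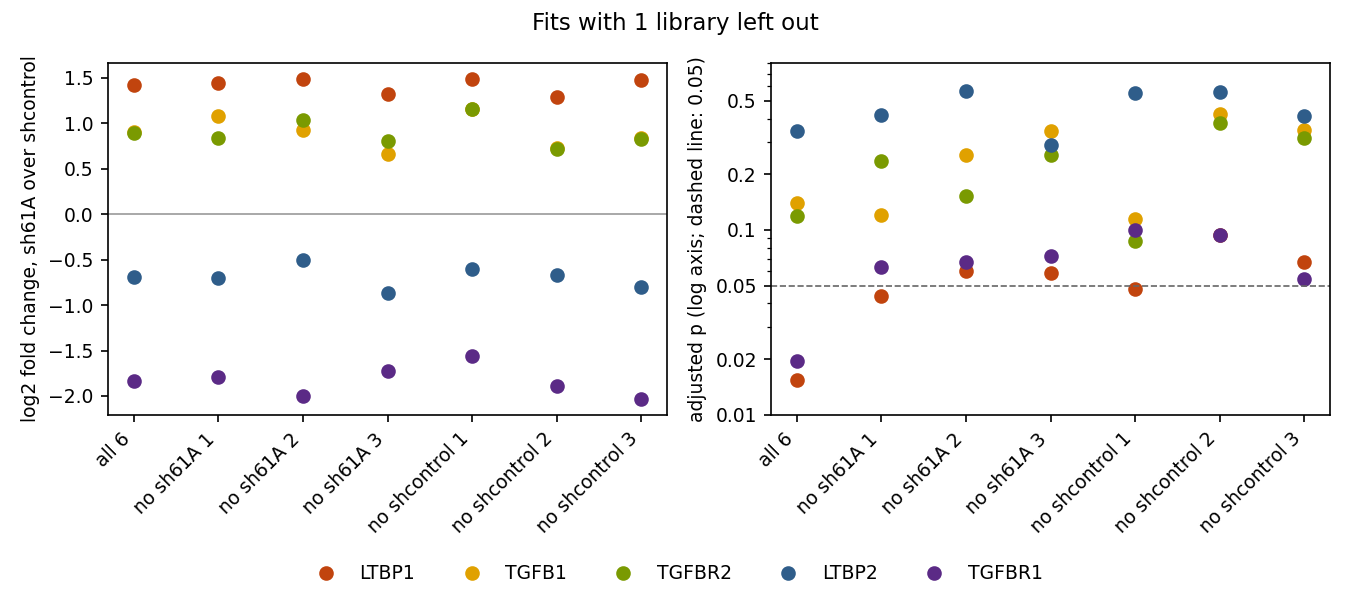
Log2 fold change (left, linear axis) and adjusted p (right, log axis, dashed line at 0.05) of the 5 genes whose groups did not overlap, from edgeR with all 6 libraries and with each library left out. LTBP1 stays between 1.28 and 1.49 and TGFBR1 between -2.03 and -1.56, while the adjusted p of TGFBR1 lies above 0.05 in all 6 reduced fits and that of LTBP1 in 4 of them; the TGFB1 and TGFBR2 points nearly coincide in several fits.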

How the data were processed

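Ribosome footprints were measured in 6 libraries of WPMY-1 cells, 3 sh61A and 3 shcontrol. The authors deposited raw read counts per Ensembl gene ID, with no normalisation that the values show. Reads went through fastp and Bowtie 1.3.1 with the hg38 build, per the submitters' processing notes. For the counting tool, annotation, read lengths and use of strand, the sources used here give nothing, so overlapping and antisense genes are uncertain. Whether only reads within coding regions were counted is likewise not known, so some counts may not be ribosome footprints. Of the deposited gene IDs, 84.8% end in a suffix such as _7, which is typical of GENCODE models mapped back to GRCh37, whereas the notes name hg38. The build behind the counts is therefore not settled. No value here uses coordinates of the counts. No molecular identifier is described in the labels. Control columns carry the name of a vector and were matched to the shcontrol samples by assay and replicate number. The table's 6 other per-sample columns are named as RNA. They belong to no sample described here and were not used, so translation was not separated from mRNA level.

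The main test was edgeR 4.0.16 under R 4.3.3 (filterByExpr, TMM, glmQLFit, glmQLFTest, two-sided), which was also tested on simulated data. The standard error is the log2 fold change over the square root of F. Shares within a library were compared by exact permutation over libraries. Alternatives were DESeq2 1.42.0, limma 3.58.1 with voom, other filters and scaling factors, a replicate block, and fits without 1 library. All 10 genes are named by rule. The members and lists were chosen with earlier results of these data known. Lists given by symbol (other pathway genes, cell type markers, TRMT61A) were not analysed here.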

Additional observations from a re-analysis of the deposited data

How the results depend on the processing

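The number of features called ranged widely. Against 364 with edgeR and TMM, there were 834 with DESeq2 (12337 adjusted p-values undefined), 735 without a filter on low counts, 602 with at least 10 CPM in 3 libraries, and 47 to 171 with 1 library left out. Library size alone gave 397, of which 63 were higher and 334 lower in sh61A libraries, against 173 higher and 191 lower with TMM. Of the 10 genes, 2 were called with TMM, 1 with library size alone (TGFBR1), and 0 or 1 with 1 library left out. The replicate block gave 208 calls and called the same 2 genes, TGFBR1 (adjusted p = 0.0434 in edgeR) and LTBP1 (0.0361). Each share also had a paired exact permutation, whose difference of means is by construction that of the unpaired test. The paired exact permutation gave p = 1.0, 0.25 and 0.25 for the TGFB1, TGFBR2 and LTBP2 shares, where 0.25 is the smallest possible. Deviations of same-numbered libraries from their group means correlated at -0.0065, -0.015 and 0.039, so the numbers give no sign of pairing. Log-scaled levels of all tested features correlated at 0.808 to 0.833 between sh61A libraries and at 0.840 to 0.879 between shcontrol libraries. Pairs across the groups gave 0.768 to 0.828, which overlaps the sh61A range. TGFB2 changed sign with limma voom (-0.031) and with the replicate block (-0.0037), and no other member did in any fit that tested it. With 1 library left out, the difference in the TGFB1 share ran from -2.85 to 5.79 percentage points, that of the TGFBR2 share from 14.5 to 21.3, and that of the LTBP2 share from -35.6 to -29.6. The causes were not tested. Shares per coding length were not run, for want of lengths, nor the alternatives for the other pathway genes. TGFB3 had 29 counts in 1 library and at most 3 in each of the others, so its change could be estimated only with a wide error (SE 2.68 on the log2 scale with edgeR and no filter on low counts).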
